A study of Mus musculus with 2 samples.

Results

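Serpins are a superfamily of protease inhibitors. Most of them act as a bait: the target protease cuts an exposed loop near the carboxyl end of the serpin, the serpin folds around the cut, and the protease stays trapped in a covalent complex. Some members have lost this activity and work as hormone carriers or chaperones. Genes of clade b (Serpinb) encode proteins without a classical secretion signal that act mostly inside cells, and several of them are characteristic of keratinocytes. Members of the other clades are mostly secreted, many by the liver into plasma, where they control clotting, fibrinolysis and leukocyte proteases.

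All genes named Serpin with a clade letter and a number were taken from the array annotation, with Serping1 left out. This gave 35 genes on 41 probe sets, of 12393 nameable genes and 22690 probe sets in all. Of the 35, 29 had a probe set of their own, on 38 probe sets: 14 Serpinb genes, 14 genes of the secreted clades a, c, d, f and i, and Serpinh1, whose protein stays in the endoplasmic reticulum. The other 6 (Serpina1a, Serpina1d, Serpina1e, Serpinb9e, Serpinb9f and Serpinb9h) were read only by 3 probe sets shared among several serpins. Serpins without a named probe set were not analysed here.

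The samples were total RNA of peeled back skin from mice aged 10 days, with 1 biotin-labelled array per genotype. The transgenic array, titled K14Ahr, held RNA of mice that express a constitutively active aryl hydrocarbon receptor (AhR) in keratinocytes, and the other array held RNA of wild-type mice, which the series design gives as littermates without the transgene. AhR is a transcription factor that senses dioxin-like compounds, and the active form works without a ligand. K14 is the usual short name of keratin 14, whose promoter is widely used to drive genes in basal keratinocytes; the labels give keratinocytes as the site of expression and no strain, and they do not say whether an array held 1 animal or a pool. The comparison asks which transcripts of skin differ when the receptor is active in the epidermis.

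With 1 array per group there was no replicate error and no test, so every value below compares these 2 arrays, not the genotypes, and the precision is limited by this number of arrays. Values are the authors' linear signal intensities. Signals below 34.7, the 40th percentile of all probe sets on both arrays, were treated as too dim to order and raised to this floor before ratios were taken; every log2 ratio is that of the transgenic signal over the wild-type signal. A gene was read from its brightest probe set (both signals summed) and counted as measured when either signal exceeded the floor. A ratio with the other signal under the floor is a bound. A gene was called at a 2-fold difference. As a technical yardstick, the log2 ratios of paired probe sets in 1764 genes differed by a median of 0.22, and in 95% of these genes by no more than 0.75 (n is the number of genes, not of samples). Paired probe sets read the same RNA on the same 2 arrays, so this spread leaves out differences between animals, labellings and hybridisations. Skin markers were present on both arrays: the keratinocyte keratin Krt5 read 2754 (transgenic) and 1868 (wild type), and the dermal collagen gene Col1a2 read 2674 and 3202. Signals of different probe sets have different responses, so levels are compared between arrays and not between genes.

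Of the 29 serpins with a probe set of their own, 17 were measured, 14 of them on both arrays. The genes that differed by 2-fold or more were Serpina3n, Serpina12 and Serpinb6a, each higher on the transgenic array, and none was lower by that much. Over all 8894 measured genes, the share past 2-fold was 2.27% on the higher side and 1.09% on the lower side. Of the 17 measured serpins, 14 (82.4%) had a floored ratio within 1.5-fold, against 86.8% of all measured genes. Both shares count bounds at their floored value. Among the serpins these are Serpinb1a, Serpinb9 and Serpinb9g, whose differences may be larger. The median log2 ratio of the measured serpins was 0.14, against -0.05 for all measured genes. In whole skin, a difference in the number of cells of a type and a difference in RNA per cell cannot be told apart.

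**Figure D1:**
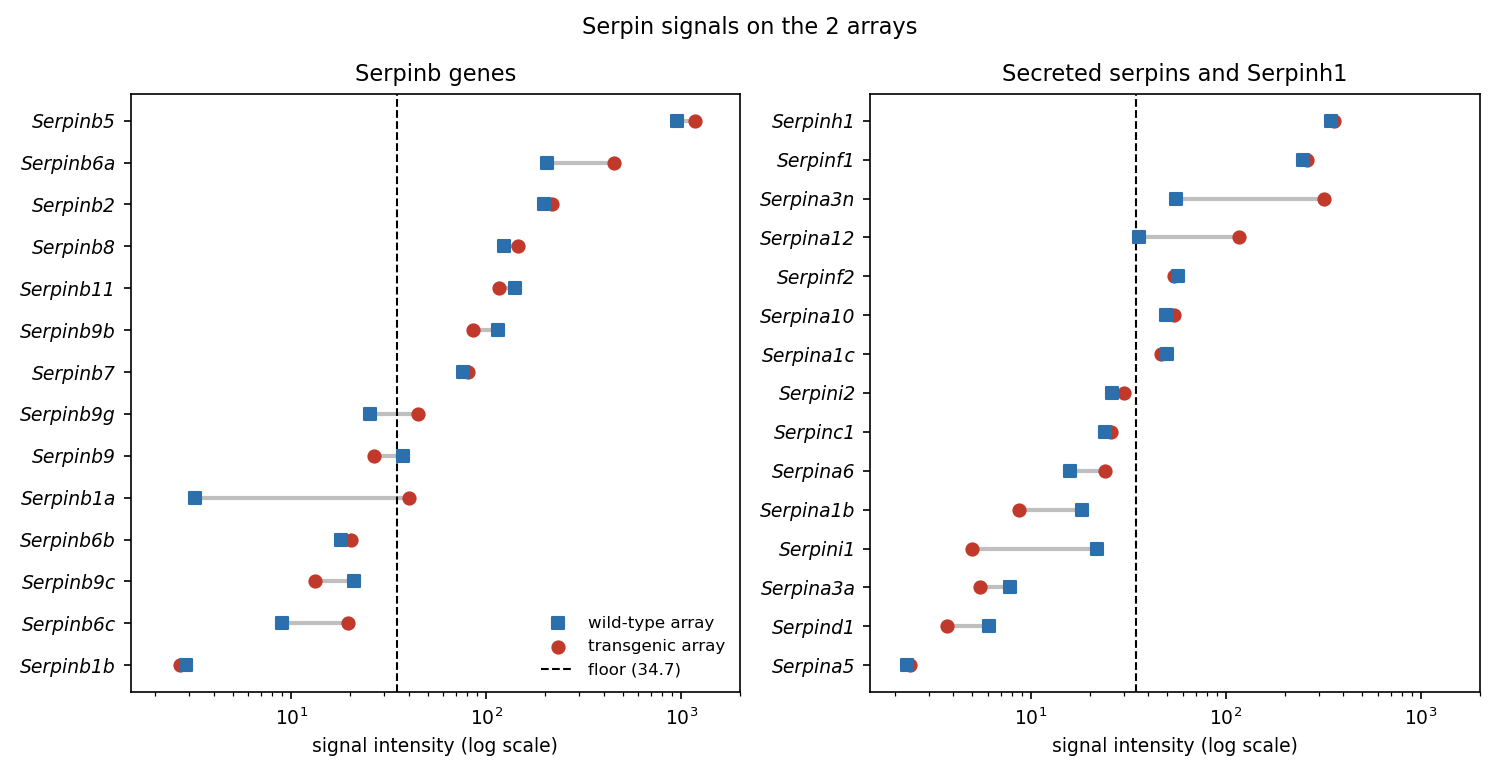
Signal intensity (log axis) of each of the 29 serpin genes on both arrays (red circles transgenic, blue squares wild type), 1 array each, with Serpinb genes on the left and the other clades on the right; grey lines join the arrays and the dashed line is the floor of 34.7. Serpina3n, Serpina12 and Serpinb6a show the gaps above the floor, and 12 genes lie below the floor on both arrays.

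The promoters of the 3 genes past 2-fold are shown because AhR binds DNA with its partner ARNT at a motif with the core GCGTG, so that a reader can see where these letters stand. Each sequence is RefSeq's on GRCm38.p6, from 250 bases before to 50 bases after the annotated start, written 5′ to 3′ on the gene's strand. Capitals mark GCGTG or its reverse complement CACGC, and TGANTCA, the pattern of AP-1 sites with any base in the middle, which is its own reverse complement; no matches overlapped in these windows. Serpina3n lies at chr12:104406458-104406757 (plus strand), Serpina12 at chr12:104044394-104044693 (minus strand) and this window of Serpinb6a at chr13:34002745-34003044 (minus strand).
Serpina3n: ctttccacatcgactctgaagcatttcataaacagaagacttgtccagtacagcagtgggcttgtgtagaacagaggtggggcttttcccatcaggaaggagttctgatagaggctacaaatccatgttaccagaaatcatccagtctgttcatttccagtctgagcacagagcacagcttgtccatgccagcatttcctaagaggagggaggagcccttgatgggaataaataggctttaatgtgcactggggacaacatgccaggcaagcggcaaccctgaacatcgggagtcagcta
Serpina12: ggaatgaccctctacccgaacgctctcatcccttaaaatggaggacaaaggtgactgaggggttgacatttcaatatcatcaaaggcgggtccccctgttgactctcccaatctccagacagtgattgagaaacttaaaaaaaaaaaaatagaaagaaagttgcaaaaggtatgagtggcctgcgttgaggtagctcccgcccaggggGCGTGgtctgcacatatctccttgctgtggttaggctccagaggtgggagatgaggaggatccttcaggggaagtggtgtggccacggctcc
Serpinb6a: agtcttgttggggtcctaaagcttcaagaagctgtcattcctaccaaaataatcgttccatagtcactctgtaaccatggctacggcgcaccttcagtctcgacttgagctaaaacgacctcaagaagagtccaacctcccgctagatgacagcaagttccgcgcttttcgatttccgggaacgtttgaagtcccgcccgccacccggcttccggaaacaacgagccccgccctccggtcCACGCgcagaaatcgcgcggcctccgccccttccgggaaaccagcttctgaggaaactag

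The AhR core starts 42 bases before the start of Serpina12 and 10 bases before this start of Serpinb6a, and neither motif occurs in the Serpina3n window. The second window of Serpinb6a, at another annotated start, holds neither motif. Of 32 serpins with a promoter window, 5 (15.6%) hold the AhR core in any of their windows, namely Serpina12, Serpinb6a, Serpinb6c, Serpinb9c and Serpinf2, against 35.1% of all 27025 genes in the table. A short motif of this kind recurs by letter composition alone, a match is not a binding site, and a window without these letters says nothing about sites elsewhere.

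Among the Serpinb genes, those measured on chromosome 1 read nearly alike on both arrays. In order along chromosome 1, Serpinb5, Serpinb11, Serpinb7, Serpinb2 and Serpinb8 were the measured members of one gene cluster, and all 5 lay above the floor on both arrays and within 1.5-fold of equality, with a median log2 ratio of 0.14. Most genes did so: 86.8% of all measured genes lay within 1.5-fold. So did 4 of the 5 measured Serpinb genes on chromosome 13, with bounds counted at their floored value.

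Serpinb5 (maspin, a serpin of epithelial cells that does not inhibit proteases) read 1172 on the transgenic and 954 on the wild-type array, a log2 ratio of 0.30. Its other probe sets gave 334 against 300 (0.16) and 304 against 249 (0.29). The 3 readings thus point the same way and differ by less than the technical yardstick. Serpinb2 (plasminogen activator inhibitor type 2, a gene long known to respond to dioxin in cultured human keratinocytes) read 217 against 197, a log2 ratio of 0.14. On these arrays it was therefore 1.10-fold higher, well short of the limit. Serpinb8, an inhibitor of the proprotein convertase furin, read 145 against 123 (0.24). Serpinb7, mutated in a human palmoplantar keratosis, read 80.6 against 75.8 (0.09). Serpinb11 was the member of the cluster on the lower side, at 116 against 141 (-0.27).

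These 5 genes share a feature of sequence that the selection did not use, the AP-1 pattern TGANTCA in the promoter window. Among all 32 serpins with a window, 9 (28.1%) hold it: these 5 and the secreted Serpina1a, Serpina1b, Serpina1c and Serpina1d. None of the 11 Serpinb genes with a window in the cluster around Serpinb6a does, counting Serpinb9e, Serpinb9f and Serpinb9h, which have no probe set of their own. Over all 27025 genes with a window, 8.97% hold it. The GRCm38.p6 gene table names 68 serpins, and those without a named probe set were not scanned. The counts by cluster therefore cover the scanned genes and not whole clusters. AP-1 factors are known regulators of keratinocyte differentiation genes, and their consensus element has C or G in the middle (TGACTCA or TGAGTCA). That stricter form occurs in the windows of Serpinb7 and Serpinb8, 2 of the 5, and in those of the 4 Serpina1 genes, against 0 of those 11 and 5.95% of all genes. The split by cluster and the stricter form were chosen after the values were seen. The matches, in capitals with 20 bases on each side, are shown so that the stretches can be compared; they lie on the plus strand of chromosome 1 of GRCm38.p6, at chr1:106861015-106861061 for Serpinb5, chr1:107362113-107362159 and chr1:107362218-107362264 for Serpinb11, chr1:107422624-107422670 for Serpinb7, chr1:107511309-107511355 for Serpinb2, and chr1:107589963-107590009 and chr1:107589999-107590045 for Serpinb8.
Serpinb5: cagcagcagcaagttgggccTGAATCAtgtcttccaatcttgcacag
Serpinb11 first: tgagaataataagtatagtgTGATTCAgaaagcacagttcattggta
Serpinb11 second: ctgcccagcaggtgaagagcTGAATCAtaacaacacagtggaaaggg
Serpinb7: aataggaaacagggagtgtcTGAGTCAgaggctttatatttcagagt
Serpinb2: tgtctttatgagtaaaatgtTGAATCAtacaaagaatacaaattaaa
Serpinb8 first: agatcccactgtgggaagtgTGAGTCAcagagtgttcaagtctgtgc
Serpinb8 second: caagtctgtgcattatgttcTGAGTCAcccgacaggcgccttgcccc

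Serpinb7 and Serpinb8 carry the form TGAGTCA and Serpinb2 and Serpinb5 the form TGAATCA, while Serpinb11 has TGATTCA and TGAATCA. The 5 motif-bearing genes were not past 2-fold in either direction, and the AhR core occurs in none of their windows. The windows of Serpinb7 (31.7%), Serpinb2 (35.3% and 39.3%) and Serpinb11 (42.7%) had a GC share below the median of all windows, 52.7%. Those of Serpinb8 (53.3%) and Serpinb5 (58.3%) lay above it. The motif shares were not adjusted for letter composition. Clusters of related genes can share promoter sequence by descent, so the 5 matches may not be independent, and the motif's role in these values was not tested.

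The other Serpinb cluster, on chromosome 13, held the 1 Serpinb gene past 2-fold. Serpinb6a (an inhibitor of cathepsin G and of trypsin-like proteases, found in many cell types) read 449 on the transgenic and 204 on the wild-type array, 2.20-fold higher, a log2 ratio of 1.14. It ranked 152nd from the top of the 8894 measured genes. Serpinb6a has a single probe set, so the value has no second reading. That probe set carries an _a suffix, which marks a probe set for several transcripts of 1 gene.

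Serpinb9b, a mouse paralogue of the granzyme B inhibitor Serpinb9, read 85.8 against 114 (-0.41), the lowest ratio of the measured serpins. Serpinb9 itself read 26.5, below the floor, against 37.6 (at most -0.12). Serpinb9g read 44.4 against a sub-floor 25.3 (at least 0.36). The probe set shared by Serpinb9e, Serpinb9f, Serpinb9g and Serpinb9h read 41.7 against 30.6 (at least 0.27), on the same side as Serpinb9g, with which it may share transcripts. The Serpinb9 genes of mouse are near copies, so which of them these signals come from is uncertain. Members of the Serpinb9 group thus lay on either side of equality, and the bounded ones rest on signals near the floor.

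Serpinb1a, an inhibitor of neutrophil elastase, read 40 with the transgene and 3.2 without it. The transgenic signal is just above the floor, so only a bound of at least 1.15-fold higher can be given, and a second Serpinb1a probe set stayed under the floor (7.8 and 4.7). With a floor set at the 20th percentile, a choice that trusts dimmer signals, the log2 ratio of Serpinb1a was at least 1.75. Serpinb1b, Serpinb6b, Serpinb6c and Serpinb9c were below the floor on both arrays, with signals from 2.7 to 21.0.

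**Figure D2:**
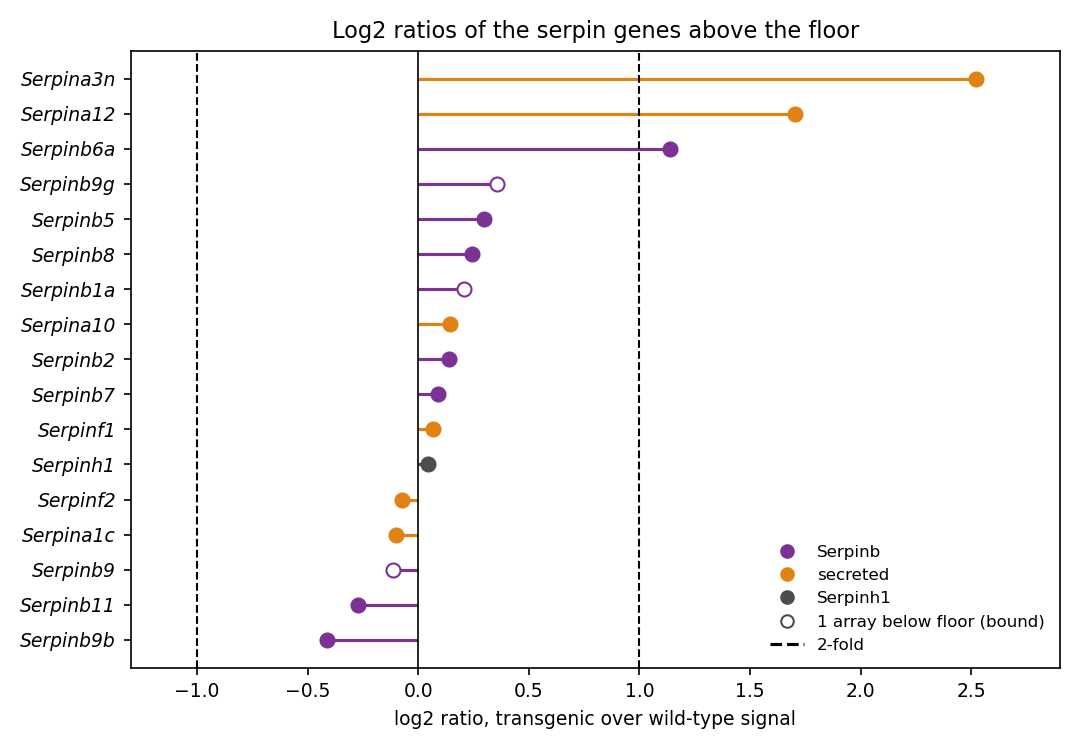
Log2 ratio, transgenic over wild type (horizontal axis) for the 17 measured serpins, 1 array per group; purple marks Serpinb, orange secreted serpins and grey Serpinh1, open circles are bounds with 1 array below the floor, and dashed lines mark 2-fold. Serpina3n (2.52), Serpina12 (1.71) and Serpinb6a (1.14) lie past the right line, and no serpin lies past the left one.

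Of the 14 secreted serpins, 2 were past 2-fold, 4 read alike on both arrays and 8 were too dim to measure. Serpina3n (a mouse counterpart of alpha-1-antichymotrypsin, an acute-phase inhibitor of leukocyte proteases including granzyme B) read 317 on the transgenic and 55.3 on the wild-type array. This was 5.74-fold higher, a log2 ratio of 2.52 and 15th from the top of all measured genes. It has 1 probe set, without a suffix for cross-hybridisation. The Serpina3 genes of mouse are a family of close copies; Serpina3a, the other one with a probe set of its own, read 5.5 and 7.8, below the floor on both arrays.

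Serpina12 (vaspin, described first as a product of visceral fat and an inhibitor of the epidermal kallikrein KLK7) read 116 against 35.6 by its brighter probe set, 3.26-fold higher, a log2 ratio of 1.71 and 48th from the top. The wild-type signal barely cleared the floor, and a second Serpina12 probe set did not reach it on either array (3.2 and 2.2). The call therefore rests on 1 of 2 probe sets, and when the floor was raised to the 60th percentile its log2 ratio was at least 0.72, short of 2-fold. The 5 measured of 6 adipocyte markers on the array had a median of -0.07 and none was past 2-fold; summed over the 6, they read 3917 on the transgenic and 4498 on the wild-type array. Among kallikreins, Klk7 read 2225 against 1238 (0.85).

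The remaining measured secreted serpins stayed close to equality. Serpinf1 (pigment epithelium-derived factor, a matrix serpin without inhibitory activity that restrains vessel growth) read 260 against 248 (0.07), and 106 against 115 (-0.12) by its second probe set. Serpinf2 (alpha-2-antiplasmin, the main plasma inhibitor of plasmin) read 53.8 against 56.6 (-0.07). Serpina10, which inhibits activated clotting factor X in the presence of protein Z, read 54.2 against 49.1 (0.14) by a suffixed probe set. Serpina1c, one of the mouse alpha-1-antitrypsin genes, read 46.5 against 49.8 (-0.10). For Serpinf1 and Serpinf2 the sign itself is not settled: averaging its probe sets put Serpinf1 at -0.02, and lowess centring put Serpinf2 at 0.00.

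The other 8 secreted serpins were below the floor on both arrays, with signals from 2.3 to 30.0. They were Serpinc1 (antithrombin), Serpind1 (heparin cofactor II), Serpina5 (protein C inhibitor), Serpina6 (the corticosteroid carrier of plasma), Serpina1b, Serpina3a, Serpini1 (neuroserpin) and Serpini2. Both probe sets of Serpini1 read lower on the transgenic array, 5.0 against 21.9 and 1.8 against 14.2, at signals that have no order here. The shared probe set of Serpina1a and Serpina1d read 1.2 and 0.6, and that of Serpina1b, Serpina1c and Serpina1e read 0.2 and 0.6. Most hepatocyte markers were below the floor too: 8 of 10 (Serpina1b is one of them) did not reach it on either array, against 28.2% of all genes. Alb, the gene of albumin, read 45.7 and 54.9, above the floor on both.

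Serpinh1 (HSP47, a chaperone that binds procollagen in the endoplasmic reticulum and inhibits no protease) read 357 against 346 (0.04), and 316 against 314 (0.01) by its second probe set. Genes of its clients and of collagen processing were also near equality, with a median of 0.02 over 16 measured genes, none past 2-fold. They ran from the collagen lysyl hydroxylase genes Plod3 (199 against 143, 0.48) and Plod1 (71.5 against 51.4, 0.48) down to Col1a1, a chain of type I collagen (1553 against 2260, -0.54), and Plod2, another lysyl hydroxylase gene (48.2 against 83.4, -0.79).

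Set side by side, the Serpinb genes had 10 of 14 members measured, 1 at least 2-fold higher and a median log2 ratio of 0.17, and the secreted serpins had 6 of 14 measured, 2 higher and a median of 0.11. The share below the floor on both arrays was 28.6% of the Serpinb genes and 57.1% of the secreted serpins, against 28.2% of all genes. Of all measured genes, 2.27% were at least 2-fold higher. Over genes above the floor on both arrays the medians were 0.14 (7 genes) and 0.11 (6 genes). The medians of the clades differed by -0.07 (secreted minus Serpinb), and the counts of 1 in 10 and 2 in 6 rest on single genes. Serpinb ratios ran from -0.41 to 1.14 and secreted ones from -0.10 to 2.52. With a 60th-percentile floor, which left 3 secreted genes, the difference of medians turned to 0.58. A difference between the clades was not tested.

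**Figure D3:**
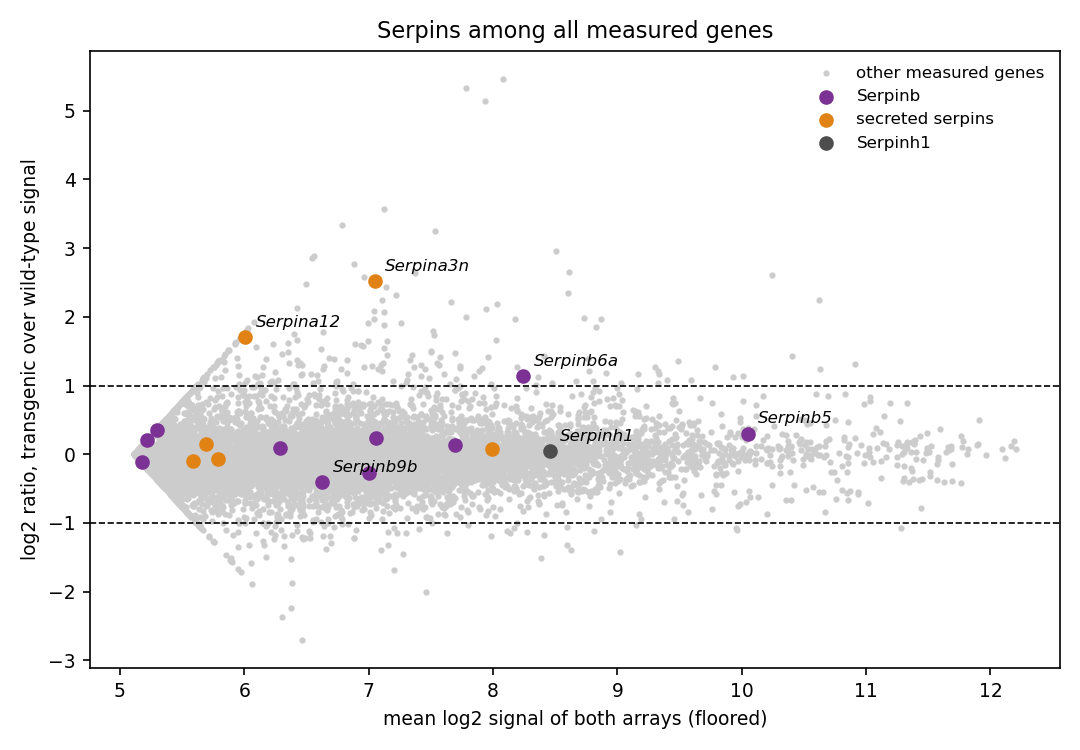
Log2 ratio, transgenic over wild type (vertical axis) against the mean log2 signal of both arrays after flooring (horizontal axis) for the 8894 measured genes in grey, with Serpinb genes in purple, secreted serpins in orange and Serpinh1 in dark grey; dashed lines mark 2-fold. Most serpins lie within the band of other genes, and Serpina3n, Serpina12 and Serpinb6a lie above it or at its edge.

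The proteases that serpins inhibit were read from lists of named genes. Counts past 2-fold in these and the later lists stand beside 2.27% higher and 1.09% lower over all measured genes. The granule proteases of neutrophils and cytotoxic cells, targets of Serpina3n, Serpinb1a, Serpinb6a and Serpinb9, were all below the floor: 0 of 8 were measured, among them Elane (28.3 and 32.6), the neutrophil elastase gene, Ctsg (10.0 and 21.0), the cathepsin G gene, and Gzmb (4.7 and 20.6), the granzyme B gene. Of the mast cell proteases 7 of 9 were measured, with 3 at least 2-fold higher, none lower, and a median of 0.86. Mcpt2 (305 against 108, 2.82-fold) and Mcpt4 (168 against 71.5, 2.35-fold), a pair of mast cell chymases, led that list, and the basophil protease gene Mcpt8 (50.1 against a sub-floor 4.5, at least 0.53) and the tryptase gene Tpsab1 (45.9 against 37.9, 0.28) ended it. Of the 7 mast cell markers, which include 3 of these proteases, 5 were measured, and those that are not proteases read otherwise: Kit, the stem cell factor receptor gene, 71.9 against 98.7 (-0.46), and Ms4a2, an antibody receptor subunit gene, 50 against 55.4 (-0.15), with Fcer1a and Hdc under the floor.

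Of 9 measured epidermal kallikreins and membrane serine proteases, 3 were at least 2-fold higher and none lower by that much, with a median of 0.85. Klk6, a trypsin-like kallikrein, read 880 against 173 (5.10-fold higher) and Tmprss4, a membrane serine protease gene, 138 against 53.5 (2.59-fold). The matriptase gene St14 (325 against 418, -0.36) and Prss8, the gene of the matriptase partner prostasin (144 against 229, -0.67), had the lowest ratios. Of 12 measured lysosomal cathepsins, 2 were at least 2-fold higher and none lower, with a median of 0.21. They were Ctss, a cathepsin of antigen-presenting cells (435 against 94.1, 4.63-fold), and Lgmn, the gene of the asparaginyl protease legumain (297 against 79.0, 3.76-fold), while Ctsz (365 against 382, -0.06) and Ctse, an aspartic protease gene (724 against 1085, -0.58), were the lowest.

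Of 11 genes of plasminogen activation, the system that Serpinb2 and Serpinf2 restrain, 5 were measured and none of these was past 2-fold. The other 6 were below the floor on both arrays. Among them were the urokinase gene Plau (29.7 and 24.3) and the plasminogen gene Plg (16.4 and 20.6), so much of the system was not read. The plasminogen receptor subunit genes Anxa2 (2789 against 1570) and S100a10 (900 against 542) had log2 ratios of 0.83 and 0.73, Plaur, the urokinase receptor gene, was at 0.39, Plgrkt at -0.02, and Plat, the tissue plasminogen activator gene, at -0.34 (53.9 against 68.3). Of 10 measured clotting genes 2 were at least 2-fold higher, Thbd, the gene of the anticoagulant thrombin receptor thrombomodulin (206 against 68.1, 3.03-fold), and F13a1, the clot-crosslinking factor XIII subunit gene (345 against 125, 2.76-fold). At the other end stood the tissue factor gene F3 (-0.18) and Procr, the protein C receptor gene (-0.45). The median of the clotting list was 0.20. Of 7 measured caspases 1 was past 2-fold, Casp14, a protease of cornifying epidermis (256 against a sub-floor 21.1, at least 7.39-fold higher), with Casp6 at 0.77, Casp2 at 0.10 and Casp9 at most -0.13, and a median of 0.43.

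Other secreted protease inhibitors outside the serpin family, for comparison, had 13 of 19 members measured, 2 of them past 2-fold on the higher side, none on the lower, and a median of 0.23. The pair were Timp1, a metalloprotease inhibitor (179 against 40.9, 4.38-fold), and Slpi, the secretory leukocyte protease inhibitor (225 against 72.2, 3.12-fold). Itih5 (-0.38) and Wfdc12 (at most -0.42) were the lowest. As in the secreted serpins, a pair of genes past 2-fold stood beside members near equality; the difference between these families was not tested.

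**Figure D4:**
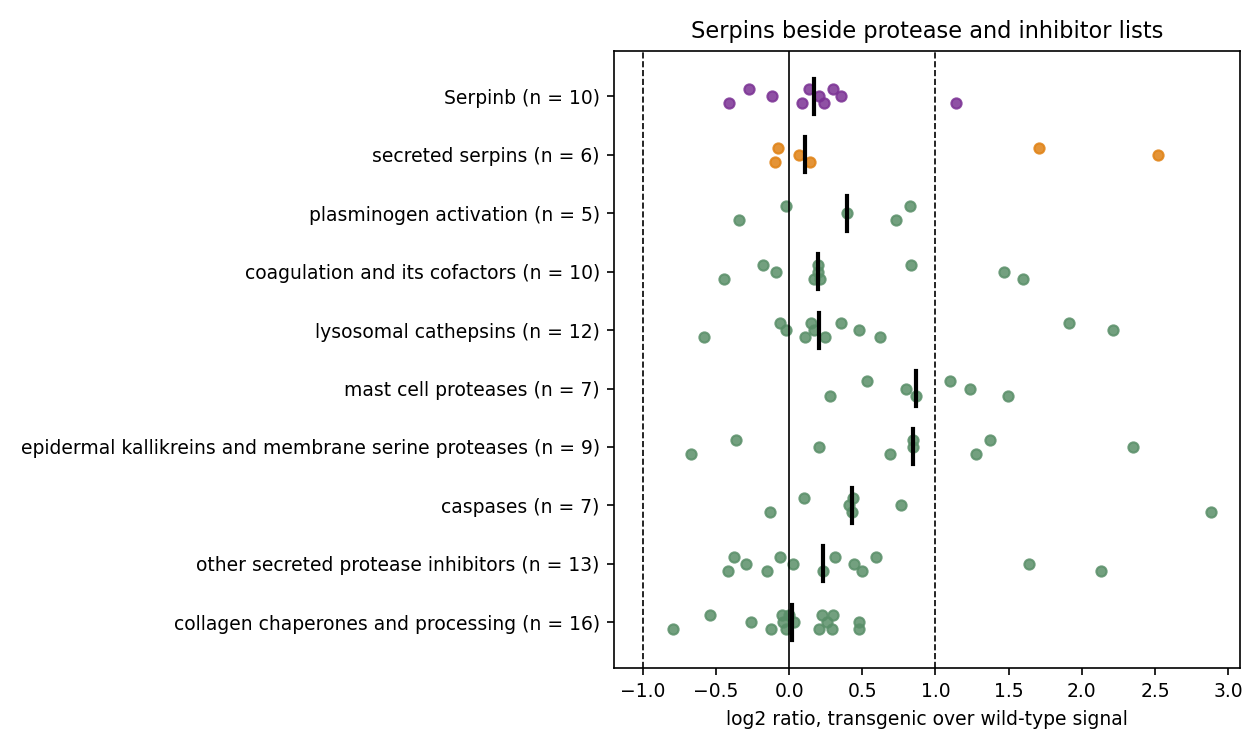
Log2 ratios, transgenic over wild type, (horizontal axis) of the measured members of each list, 1 point per gene with bounds included, for the Serpinb genes (purple), the secreted serpins (orange) and the lists of proteases and other inhibitors (green); black bars are list medians and dashed lines mark 2-fold. The medians of mast cell proteases (0.86) and kallikreins (0.85) lie to the right of those of Serpinb (0.17) and secreted serpins (0.11).

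Markers of several cell types moved on the same arrays, and their values stand beside the 3 higher serpins. All 12 measured macrophage markers (of 13 on the array) lay above 0, 9 at least 2-fold higher, and the 13 summed to 2866 on the transgenic and 951 on the wild-type array. Of 8 measured stress keratinocyte markers (of 9) 5 were at least 2-fold higher, with summed signals of 9716 and 3703, and of 9 measured suprabasal markers 5 were, with 17452 and 7019. The 7 measured granulocyte markers (of 9) had a median of 0.31 with 1 past 2-fold, and summed signals over the 9 of 585 and 358. The 10 fibroblast markers had a median of 0.22, with 6 above 0, 4 below 0 and 1 at least 2-fold higher, and summed to 10424 and 10856. The 7 measured endothelial markers (of 10) had a median of -0.07, and the 2 measured T and NK cell markers (of 9) lay on either side of 0, none past 2-fold in these lists. Melanocyte, skeletal muscle and hair follicle markers lay mostly below 0. All 6 melanocyte markers lay below 0, 3 of them past 2-fold, with summed signals of 1295 and 2568. Of 8 skeletal muscle markers 7 lay below 0, 1 at least 2-fold lower, with sums of 4396 and 5492, and of 12 hair follicle markers 11 did, none past 2-fold, with sums of 22712 and 26818. The part of any of these cell types in the signals of Serpina3n, Serpina12 or Serpinb6a was not tested.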

How the data were processed

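Total RNA of back skin was hybridised to 1-colour arrays, 2 in all, grouped by the source names in the labels. The deposited values are linear signal intensities of 22690 probe sets, scaled before deposit (2% trimmed mean 100.03 on both); their software is not named in the labels, and scanner files and detection calls were not used here. Signals ran from 0 to 4995, and 59.7% (transgenic) and 60.2% (wild type) of probe sets lay above the floor.

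Genes were named from the platform annotation of 2016 (20380 probe sets with 1 gene, 691 with several, 1555 with none, 64 controls) and checked by gene identifier against the GRCm38.p6 gene table, where 29 of those with 1 gene were not found. Signals were rescaled to equal trimmed means, floored at the 40th percentile and put on the log2 scale (Python 3.11.15, numpy 2.4.6, pandas 2.3.3). The calculation was run on simulated arrays with differences planted only in genes well above the floor. This checked the code and not the precision for dim genes. Promoters came from RefSeq for 32 of 35 serpins. Serpina6, Serpina10 and Serpinb1a had no entry. Protein sequences were not used here.

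All measured serpins are named, and of each protease list the 2 highest and 2 lowest (all where 5 or fewer were measured), with a few list members that are known serpin targets added after their values were seen. The members and gene lists were chosen with earlier results of these data known.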

Additional observations from a re-analysis of the deposited data

How the results depend on the processing

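The serpin counts were recomputed under 13 other settings, the clade medians under 11 and single serpins under the 8 to 11 that measured them; the protease, inhibitor and marker lists and the motif counts were not. Of the 13, 11 were planned and 2 added after the values were seen: measuring genes by the mean of both signals, and keeping those above the floor on both arrays. No called serpin changed direction, and no serpin was 2-fold lower under any of them. The count of higher Serpinb genes, 1, was 2 with a pseudocount of 16 and with a 20th-percentile floor, where Serpinb1a joined, and 0 with a 3-fold limit and without suffixed probe sets, which removes Serpinb6a. With a 60th-percentile floor the count of higher secreted serpins was 1 in place of 2, their median 0.72 over 3 genes, and the difference from Serpinb 0.58. Over all genes, the 202 higher and 97 lower became 393 and 257 at the lower floor, 123 and 45 at the higher one, 605 and 567 at 1.5-fold and 61 and 9 at 3-fold. The log2 ratio of Serpina3n ran from 2.17 to 2.59 and that of Serpinb6a from 1.08 to 1.18. No paired analysis was possible because each group has 1 array. Signal over background limits what can be said of 12 of the 29 serpins, which had no ratio; a low response of the probe set and little transcript cannot be told apart there.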
